A study of Mus musculus with 19 samples.

Results

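The 10 genes described here carry the decision to enter a new cell division: the Myc family genes Mycn and Myc, the D cyclin genes Ccnd1, Ccnd2 and Ccnd3, the kinase genes Cdk4 and Cdk6 whose products the D cyclins switch on, and the E2F activator genes E2f1, E2f2 and E2f3. They were taken by symbol from the probe annotation of an Affymetrix mouse array, as 10 of 18193 genes with a symbol, and each is read through its brightest probe set, by the mean of all 19 arrays. The 10 genes have 30 probe sets between them, and all 10 passed the filter on low signal. Their values are log2 signals, on which a difference of 1 is a 2-fold difference.

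The study asked how Nestin-positive progenitors of the mouse cerebellum differ from other progenitors there, and how alike the tumors are that start in cells with the Nestin or the Math1 marker. The progenitor groups were 4 arrays of Nestin-positive neuronal progenitors (NEPs), 4 arrays of Math1-positive neuronal progenitors (GNPs, granule neuron progenitors) and 3 arrays of CD133+, Lin- cerebellar progenitors (NSCs). Tumor cells came from Nestin-CreERT2/Ptch1C/C mice (NEP tumors, 4 arrays) and from Math1-CreERT2/Ptch1C/C mice (GNP tumors, 4 arrays), in which the Nestin or Math1 marker drives a tamoxifen-dependent Cre that acts on Ptch1, the receptor that restrains the Hedgehog pathway. All mice were of the C57BL/6 strain, and the cells were taken from the cerebellum with no culture and no treatment before lysis; ages, sexes, pooling and the number of mice per array are not given in the sources used here, so p-values measure only the spread between these arrays.

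In dividing granule neuron progenitors, Hedgehog signalling raises the transcription of Mycn and of the D cyclins. Cyclin D with Cdk4 or Cdk6 phosphorylates the retinoblastoma protein, which then releases the E2F activators, and these switch on the genes of DNA replication. Myc proteins bind the E-box with their partner Max and promote ribosome synthesis and growth, and medulloblastomas with an active Hedgehog pathway are known for high Mycn and cyclin D1.

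The RefSeq promoter table (GRCm38.p6) held windows for 7 of the 10 genes, 10 windows in all, and none for Myc, Ccnd1 and Ccnd2. The only windows of E2f1 and Cdk6, and the second ones of E2f2, E2f3 and Ccnd3, lie inside the annotated gene. No window therefore holds the bases just before the annotated E2f1 or Cdk6 gene. The 250 bases before the start were searched on both strands for E2F letters (TTTCGCGC, TTTGGCGC, TTTCCCGC or TTTGCCGC), the E-box CACGTG and the Gli letters TGGGTGGTC. The 3 windows below are shown because they hold the links of the circuit as letters: E2F letters before Mycn and before E2f3 itself, and E-boxes, the letters that Myc and Max bind, before Cdk4. Matches are in capitals, and each sequence runs 5′ to 3′ on the gene's strand and ends at the base before the start.
Mycn, chr12:12941837-12942086, minus strand: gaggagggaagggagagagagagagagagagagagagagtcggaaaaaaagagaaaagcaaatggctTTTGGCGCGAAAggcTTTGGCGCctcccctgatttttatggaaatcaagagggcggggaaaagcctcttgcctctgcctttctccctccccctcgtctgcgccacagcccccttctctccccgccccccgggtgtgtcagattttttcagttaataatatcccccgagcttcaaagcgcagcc
Cdk4, chr10:127063285-127063534, plus strand: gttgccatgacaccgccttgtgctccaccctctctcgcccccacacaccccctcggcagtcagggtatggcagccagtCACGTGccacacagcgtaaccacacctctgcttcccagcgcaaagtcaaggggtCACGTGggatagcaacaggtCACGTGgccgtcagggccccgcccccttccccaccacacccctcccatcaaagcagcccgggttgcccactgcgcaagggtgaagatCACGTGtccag
E2f3, chr13:29986064-29986313, minus strand: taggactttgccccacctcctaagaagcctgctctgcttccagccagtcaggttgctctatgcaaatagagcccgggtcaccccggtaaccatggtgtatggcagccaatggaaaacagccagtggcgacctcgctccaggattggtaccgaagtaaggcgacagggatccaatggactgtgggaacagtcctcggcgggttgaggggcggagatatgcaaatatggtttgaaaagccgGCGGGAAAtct

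The Mycn window held E2F letters at 3 places: TTTGGCGC beginning 183 and 168 bases before the start, and GCGCGAAA, the reverse complement of TTTCGCGC, beginning 179 bases before it and overlapping the first. The E2f3 window held GCGGGAAA, the reverse complement of TTTCCCGC, beginning 11 bases before the start. E2F letters were in 2 of the 10 windows of these genes and in 1.86% of all 32851 windows of the table. Cdk4 had 4 copies of CACGTG, beginning 172, 118, 98 and 11 bases before the start, and Cdk6 and a second E2f3 window had 1 copy each, against 6.02% of all windows with at least 1. Gli letters were in none of the 10 windows and in 0.225% of all windows. These matches describe the letters and do not show that a factor binds there.

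Title numbers divide the arrays into a set of NEPs and GNPs and a set of NSCs and tumors, and poly-A spike-ins differed between the sets (8.94 ± 0.23, SD, n = 8, against 6.83 ± 0.29, n = 11). Set and group cannot be told apart in the comparisons with NSCs or of tumors with progenitors, whereas the progenitor pair (NEP, GNP) and the tumor pair each lie within a set. The label genes were partly as named. Nes, the Nestin gene, had a log2 signal of 5.87 ± 0.19 in NEPs and 3.49 ± 0.35 in GNPs (n = 4 each). Atoh1, the gene of Math1, read 3.95 ± 1.59 in NEPs, but stood as high in NSCs (8.93 ± 0.01, n = 3) as in GNPs (8.85 ± 0.09). Prom1, the gene of CD133, read 8.08 ± 0.11 in NSCs, 7.24 ± 0.17 in GNPs and was highest in NEPs (8.61 ± 0.305). Whether the Ptch1 probe set covers the deleted part was not examined, so its signal does not check the deletion. NEP arrays 1 and 2 stood apart from 3 and 4. Taken as the median of the list on an array, microglia and macrophage markers stood at 8.99, 8.98, 3.74 and 2.03 in NEPs 1 to 4 and at 1.86 to 2.22 in GNPs, and the pericyte, fibroblast and meningeal markers 10.40, 10.34, 7.25 and 6.97 against 2.74 to 3.64. All 13 tested markers of the former list and all 10 of the latter were called higher in NEPs. Results on NEPs are therefore also given with NEP arrays 3 and 4 only.

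Between the progenitors, NEPs had the lower signal of most of the circuit and the higher signal of Myc and Ccnd3. Of the 10 genes, 2 were called higher in NEPs than in GNPs, 7 lower and 1 in neither direction, at an adjusted p below 0.05 by limma with Benjamini-Hochberg adjustment; of all 12148 genes tested, 69.5% were called. The median difference of the 10 genes was -0.64, and that of all genes tested was -0.11. Between the tumors, 4 of the 10 genes were called, all higher in NEP tumors, against 23.6% of all genes. In such bulk RNA, fewer cells of a type and less RNA per cell cannot be told apart.

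Mycn, the Myc family member of the dividing cerebellum, was lowest in NEPs and highest in NEP tumors. Its log2 signal was 8.40, 8.63, 9.19 and 9.53 on NEP arrays 1 to 4, and 9.73, 9.64, 9.70 and 9.91 on GNP arrays 1 to 4. The NSC arrays read 9.60, 9.63 and 9.64. All NEP arrays lay below all GNP and NSC arrays, and the 4 NEP values were far more spread than those of any other group (SD 0.52, against 0.02 to 0.24). In tumors, Mycn read 9.91, 10.02, 10.44 and 10.25 on NEP tumor arrays 1 to 4, and 9.58, 9.62, 9.65 and 9.71 on GNP tumor arrays 1 to 4. The tumor groups did not overlap. The order of the means was NEP tumor, GNP, GNP tumor, NSC and NEP, in which GNP and GNP tumor overlapped, as did GNP tumor and NSC.

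**Figure D1:**
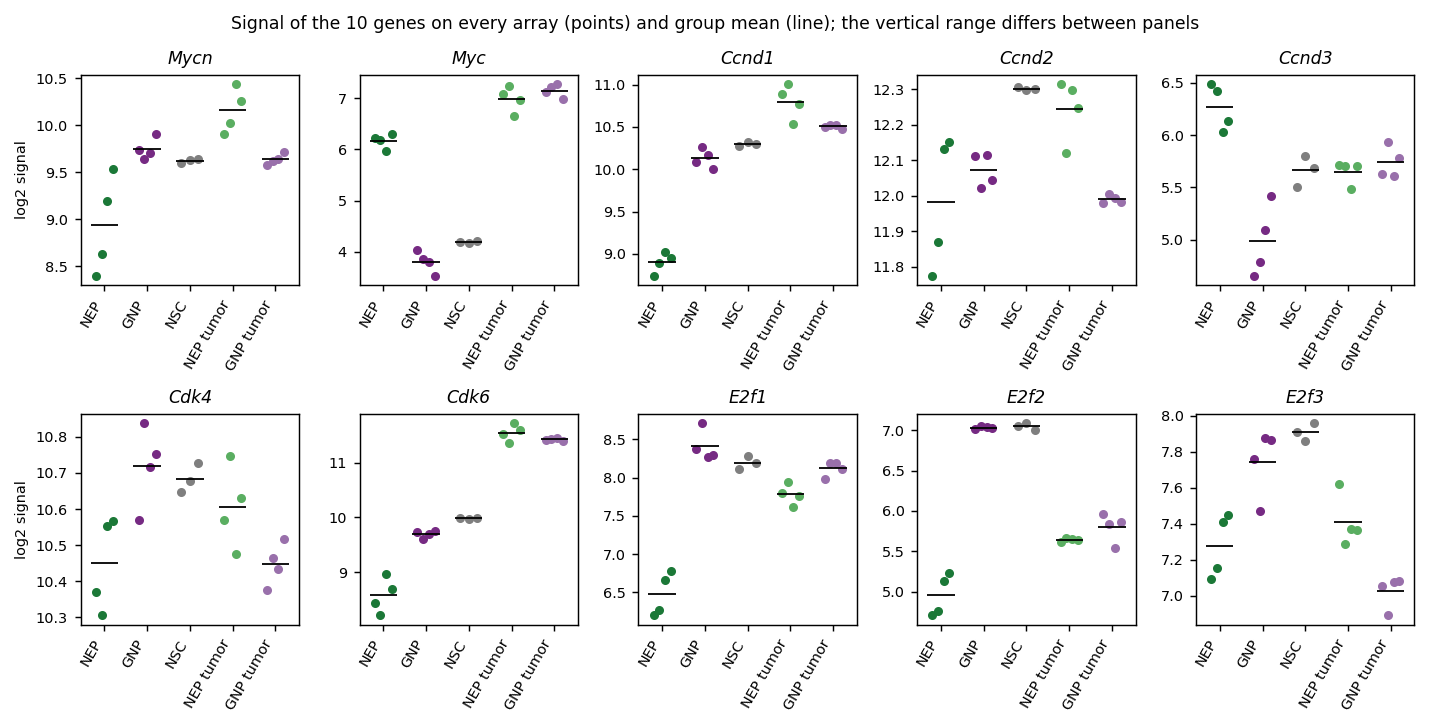
Log2 signal of the 10 genes (vertical axis, its range set for each gene) in the 5 groups; each point is 1 array, in the order of the array numbers, and the line is the group mean. Myc is lowest in GNPs and NSCs and highest in both tumor groups, and Cdk6 is highest in both tumor groups, while Mycn, E2f1 and E2f2 are lowest in NEPs.

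Myc, which encodes c-Myc, the family member first known from other tissues, had another order than Mycn. It read 6.23, 6.18, 5.97 and 6.30 on NEP arrays 1 to 4, and 4.04, 3.86, 3.80 and 3.53 on GNP arrays 1 to 4. On the NSC arrays it read 4.19, 4.17 and 4.22. Each NEP array was at least 5.97 and no GNP or NSC array passed 4.22. The tumors were higher again, at 7.08, 7.24, 6.66 and 6.96 on NEP tumor arrays 1 to 4 and 7.12, 7.21, 7.27 and 6.97 on GNP tumor arrays 1 to 4. Both tumor groups overlapped each other and lay above every progenitor array.

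Ccnd1 encodes cyclin D1, a Hedgehog-responsive D cyclin of granule neuron progenitors. It read 8.74, 8.90, 9.02 and 8.95 on NEP arrays 1 to 4, against 10.09, 10.26, 10.17 and 10.002 on GNP arrays 1 to 4 and 10.28, 10.32 and 10.30 on the NSC arrays. Its means rose in the order NEP, GNP, NSC, GNP tumor and NEP tumor with no overlap between neighbours. NEP tumor arrays 1 to 4 read 10.89, 11.005, 10.53 and 10.77, and GNP tumor arrays 1 to 4 read 10.50, 10.53, 10.53 and 10.48. NEP tumor array 3 was level with the highest GNP tumor arrays to 2 decimals.

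Ccnd2, which encodes cyclin D2, kept within a narrow range of 11.77 to 12.31 over all arrays. NEP arrays 1 to 4 read 11.77, 11.87, 12.13 and 12.15 and so lay on both sides of the GNP arrays, at 12.11, 12.02, 12.11 and 12.05. NSC arrays read 12.31, 12.30 and 12.30. In tumors it read 12.31, 12.12, 12.30 and 12.25 in NEP tumors and 11.98, 12.01, 11.99 and 11.98 in GNP tumors, with no overlap. Ccnd3, which encodes cyclin D3, had the reverse order of Ccnd1 between the progenitors. It read 6.49, 6.42, 6.03 and 6.13 on NEP arrays 1 to 4, and 4.65, 4.79, 5.09 and 5.41 on GNP arrays 1 to 4. NSCs (5.66 ± 0.15, n = 3), GNP tumors (5.74 ± 0.15, n = 4) and NEP tumors (5.65 ± 0.11, n = 4) lay between them and overlapped.

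The kinase genes differed in range. Cdk4 had group means between 10.45 and 10.72, and each neighbouring pair of groups in its order (GNP, NSC, NEP tumor, NEP, GNP tumor) overlapped. Its NEP arrays read 10.37, 10.31, 10.55 and 10.57, and its GNP arrays 10.57, 10.84, 10.72 and 10.75. Cdk6 encodes the other kinase partner of the D cyclins and had group means up to 2.98 apart. Cdk6 read 8.43, 8.21, 8.96 and 8.70 on NEP arrays 1 to 4, 9.74, 9.61, 9.69 and 9.76 on GNP arrays 1 to 4, and 9.997, 9.97 and 9.99 on the NSC arrays. The tumors were highest, at 11.52, 11.37, 11.72 and 11.60 in NEP tumors and 11.42, 11.43, 11.45 and 11.41 in GNP tumors. The tumor groups overlapped, and no progenitor array reached them.

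The E2F activators, whose targets include the replication genes and the E2F genes themselves, were lowest in NEPs for E2f1 and E2f2. E2f1 read 6.20, 6.28, 6.66 and 6.78 on NEP arrays 1 to 4, and 8.37, 8.71, 8.27 and 8.30 on GNP arrays 1 to 4. NSC arrays read 8.12, 8.28 and 8.19, GNP tumors 8.12 ± 0.10 and NEP tumors 7.78 ± 0.13 (n = 4 each). GNPs, NSCs and GNP tumors formed a run of overlapping groups, above NEP tumors, with NEPs apart and lowest. E2f2 read 4.71, 4.77, 5.14 and 5.24 on NEP arrays 1 to 4, against 7.02, 7.05, 7.03 and 7.03 on GNP arrays 1 to 4 and 7.05, 7.08 and 7.003 on the NSC arrays. Both tumor groups lay between, at 5.61, 5.67, 5.65 and 5.64 in NEP tumors and 5.97, 5.83, 5.55 and 5.86 in GNP tumors, and overlapped each other. E2f3 was lowest in GNP tumors, at 7.06, 6.89, 7.08 and 7.08. Its NEP tumor arrays read 7.62, 7.28, 7.37 and 7.37, its NEP arrays 7.09, 7.15, 7.41 and 7.45, and its GNP arrays 7.76, 7.47, 7.88 and 7.87. The NSC mean was the highest (7.91 ± 0.05, n = 3), and the order of the means was NSC, GNP, NEP tumor, NEP and GNP tumor, in which neighbours overlapped except NEP and GNP tumor.

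The comparison of NEPs with GNPs asked what sets the Nestin-positive progenitor apart. Myc was higher in NEPs by 2.36, SE 0.12, adjusted p = 2.47e-11, and Ccnd3 by 1.28, SE 0.15, adjusted p = 8.04e-07. E2f2 differed by -2.07, SE 0.11, adjusted p = 2.23e-11, and E2f1 by -1.94, SE 0.12, adjusted p = 5.15e-10. Among all genes tested, 7.58% had a larger difference in size than Myc and 9.33% than E2f2. Ccnd1 differed by -1.23 (SE 0.09, adjusted p = 2.97e-09), Cdk6 by -1.12 (SE 0.12, adjusted p = 2.69e-07) and Mycn by -0.81 (SE 0.18, adjusted p = 0.000764). Smaller differences were those of E2f3, -0.47 (SE 0.10, adjusted p = 0.000797), and Cdk4, -0.27 (SE 0.08, adjusted p = 0.00604). In each of these 9 genes the 4 NEP arrays lay on one side of the 4 GNP arrays, as in 57.1% of all genes tested. For Cdk4 the nearest arrays were almost level, at 10.568 on NEP array 4 and 10.569 on GNP array 1. Ccnd2 was not called, at -0.09 with a 95% interval from -0.26 to 0.07. Fitted to the NEP and GNP arrays alone, the same 9 genes were called, with Mycn at an adjusted p = 0.017. With NEP arrays 3 and 4 only, which have the lower microglia and mesenchymal medians, 8 of the 9 calls were made in the same direction. Myc then differed by 2.33, E2f2 by -1.85, E2f1 by -1.70 and Mycn by -0.39 (adjusted p = 0.0162), while Cdk4 lost its call at -0.16 (adjusted p = 0.133).

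The target lists of the E2F and Myc factors were lower in NEPs. All 19 tested E2F target genes of S phase fell in NEPs relative to GNPs, with a median of -0.71. Tk1, thymidine kinase, differed by -1.47 (SE 0.15, adjusted p = 2.08e-07), and Tyms, thymidylate synthase, by -1.31 (SE 0.13, adjusted p = 1.35e-07). Of 18 Myc target genes of growth and ribosome synthesis, 16 fell and 0 rose, with a median of -0.56, on the arrays on which Myc was higher and Mycn lower. They included Rrp12, a ribosome assembly factor, at -0.79 (SE 0.11, adjusted p = 8.04e-06), and Cdc25a, the phosphatase that activates CDK2, at -0.78 (SE 0.16, adjusted p = 0.000293). The array medians of both target lists on NEP arrays 1 and 2 were below those on arrays 3 and 4, as were the signals of Mycn, E2f1 and E2f2. The E2F target medians were 9.12, 9.10, 9.48 and 9.35 on NEP arrays 1 to 4 and 9.85 to 10.08 in GNPs. Glial markers also moved with this comparison, and on all 4 NEP arrays. The median of 10 Bergmann glia and astrocyte markers was 10.34 to 10.83 in NEPs and 3.38 to 4.88 in GNPs, with 10 of 10 called higher in NEPs. The median of 8 neural stem cell and radial glia markers was 9.40 to 9.88 against 3.04 to 3.70, with 8 of 8 called higher. Endothelial markers were called higher in 9 of 9 and oligodendrocyte lineage markers in 6 of 7, while 7 of 8 granule neuron progenitor markers and 7 of 9 differentiating neuron markers were called lower in NEPs (medians of -3.29 and -2.68). Leaving out NEP arrays 1 and 2 bears on the microglia and mesenchymal markers and not on the glial ones, and the part of all these markers in the differences was not tested otherwise.

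**Figure D2:**
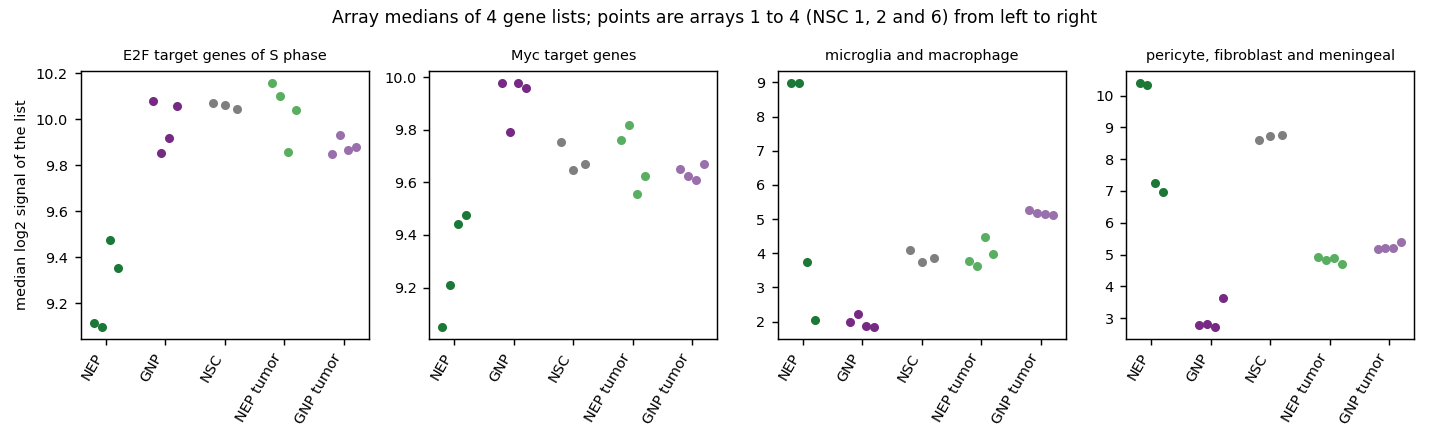
Median log2 signal (vertical axis, its range set for each panel) of the tested genes of 4 lists on each array, by group: E2F target genes, Myc target genes, microglia and macrophage markers, and pericyte, fibroblast and meningeal markers. The E2F target medians of the 4 NEP arrays run from 9.10 to 9.48, below those of all other arrays, and the marker medians of NEP arrays 1 and 2 lie above those of every other array.

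Around the 10 genes, the regulators moved in both directions between NEPs and GNPs, where 29.6% of all genes tested were called higher in NEPs and 39.9% lower. Among 7 other E2F and DP factors, 2 rose and 4 fell in NEPs. E2f5, a repressor E2F, differed by 0.94 and E2f6 by 0.39 (adjusted p = 0.041), while the atypical repressors E2f7 and E2f8 differed by -1.61 and -0.96. Of 10 Myc partners and antagonists, 1 rose and 8 fell. Mxd4, an antagonist that competes for Max, rose by 1.01, whereas Max differed by -0.85 and Mxd3 by -1.18. Of 9 genes of the cyclin E, cyclin A and CDK2 machinery, 5 fell and 0 rose, led by Ccne2, the cyclin E2 gene, at -0.9999, and by Cdc25a. Of 10 pocket proteins and CDK inhibitors, 2 rose, Cdkn1c (p57) by 1.81 and Rbl2 (p130) by 0.55, and 5 fell, among them Cdkn1a (p21) at -1.01 and Cdkn2d (p19, an inhibitor of Cdk4 and Cdk6) at -0.996.

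Genes that act on the stability of the Myc and cyclin D proteins and the upstream Hedgehog genes also split. Of 11 stability genes tested of 12, 2 rose in NEPs and 5 fell. Fbxw7, the ubiquitin ligase subunit that marks Myc proteins for degradation, differed by 1.14 (adjusted p = 2.1e-05) and Ppp2r5a, a phosphatase 2A subunit, by 0.60. Aurka, the kinase that stabilises N-Myc, differed by -1.39 (adjusted p = 2.28e-06), and Fbxo31, a ligase subunit for cyclin D1, by -0.72. Of 7 tested Hedgehog pathway genes of 8, 3 rose and 2 fell. Gli1 and Gli2, the activating Gli factors, differed by -0.97 (adjusted p = 0.00333) and -1.19 (adjusted p = 3.7e-07). Gli3, mostly a repressor, differed by 1.49. Hhip, which binds Hedgehog ligand, had 8.07 in NEPs and 2.22, under the array median and so dim, in GNPs.

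The comparison of the tumors asked how alike they are when Ptch1 is targeted through either marker. E2f3 was higher in NEP tumors by 0.39 (SE 0.10, adjusted p = 0.0134), Ccnd2 by 0.25 (SE 0.08, adjusted p = 0.026), Ccnd1 by 0.29 (SE 0.09, adjusted p = 0.0276) and Mycn by 0.52 (SE 0.18, adjusted p = 0.0461). These 4 calls lie near the threshold. The array medians of the 13 tested microglia and macrophage markers were 3.61 to 4.48 in NEP tumors and 5.11 to 5.25 in GNP tumors. Of these markers, 0 were called in either direction, and 0 of the pericyte, fibroblast and meningeal or endothelial ones. Called higher in NEP tumors were 3 of 8 radial glia, 2 of 9 differentiating neuron, 1 of 8 granule neuron progenitor and 1 of 7 oligodendrocyte lineage markers, and 0 of these lower. Of 10 Bergmann glia and astrocyte markers, 2 were higher and 2 lower. The part of all these markers in these differences was not tested. Leaving out any 1 of the 8 tumor arrays in turn left 1 to 3 of the 10 genes called, of which E2f3 was called each time (adjusted p from 0.0148 to 0.0486). With NEP tumor arrays 1 and 2 only, Ccnd1 (0.44) and E2f3 (0.43) were called and Mycn was not (0.33, adjusted p = 0.324). With NEP tumor arrays 3 and 4 only, Mycn was called (0.71, adjusted p = 0.038) and Ccnd1 was not (0.14, adjusted p = 0.345). NEP tumor arrays 1 and 2 were thus high for Ccnd1 and arrays 3 and 4 for Mycn.

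For the other 6 genes the tumors did not differ at the threshold, and the 95% intervals of the fit bound the difference. Myc differed by -0.16 (-0.42 to 0.10), Ccnd3 by -0.09 (-0.40 to 0.22), and Cdk6 by 0.13 (-0.12 to 0.37). Cdk4 differed by 0.16 (-0.01 to 0.32) and E2f2 by -0.16 (-0.38 to 0.07). E2f1 differed by -0.34, with an interval from -0.60 to -0.08 and an adjusted p = 0.0575, and its 4 NEP tumor arrays, at 7.80, 7.94, 7.62 and 7.76, all lay below the GNP tumor arrays, at 7.99, 8.19, 8.19 and 8.12. In all, 5 of the 10 genes had tumor groups that did not overlap, against 32.9% of all genes tested. The second E2f1 probe set, close to the first in signal, was called lower in NEP tumors, at -0.69 (adjusted p = 0.00244).

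In the lists around these genes the calls between the tumors were as follows, where 15.5% of all genes tested were called higher in NEP tumors and 8.1% lower. Of 19 E2F target genes, 2 were higher in NEP tumors, Pola1 (0.38), a DNA polymerase subunit, and Mcm6 (0.23), a subunit of the replicative helicase, and 17 were not called. Of 18 Myc target genes, 6 were higher, led by Polr1b (1.23), a subunit of RNA polymerase I, and Cdc25a (0.51), and Odc1, which makes polyamines, was lower (-0.39). Tfdp1 (0.38) and Tfdp2 (0.26), the DP partners of the E2F factors, were higher, as was Mlx (0.65) among Myc partners. In the cyclin E, cyclin A and CDK2 list, 3 genes were higher, Skp2 (0.48) and Cdc25a among them, and Ccna2 (-0.37) and Ccne1 (-0.36), the genes of cyclins A2 and E1, were lower. Rbl2 was higher (0.45), and Cdkn2b (-0.49) and Cdkn2d (-0.42), inhibitors of Cdk4 and Cdk6, were lower. Ambra1 (-0.30), the adaptor that targets D cyclins for degradation, and Usp7 (-0.29), a deubiquitinase, were lower. Of 7 Hedgehog genes, 4 were higher, led by Hhip (1.28) and Sufu (0.60), a brake on the Gli factors.

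Whether the NEP to GNP difference was the same in tumors as in progenitors was tested as an interaction, the tumor difference minus the progenitor difference, in which an effect that adds the same amount to all arrays of a set cancels. All 10 genes were called, 8 positive and 2 negative, against 61.9% of all genes tested. The median was 1.05 for the 10 genes and 0.15 for all. Myc had the largest in size, -2.52 (SE 0.17, adjusted p = 2.22e-09), followed by E2f2 at 1.91 (SE 0.15, adjusted p = 1.38e-08), E2f1 at 1.60 and Ccnd1 at 1.52 (SE 0.13, adjusted p = 3.11e-08). Ccnd3 had -1.37, Mycn 1.33 (SE 0.25, adjusted p = 0.000289), Cdk6 1.25, E2f3 0.85, Cdk4 0.43 and Ccnd2 0.35 (SE 0.11, adjusted p = 0.0124). For Mycn, Ccnd1 and E2f3 the direction was called in both comparisons and turned, from lower in NEPs to higher in NEP tumors. The tumor calls of Mycn and Ccnd1 depended on which NEP tumor arrays were used. E2f3 kept its tumor call with each tumor array left out, but not with NEP tumor arrays 3 and 4 only. With NEP arrays 3 and 4 only, 9 of the 10 calls were made, and Ccnd2 was at 0.19 (adjusted p = 0.0942). After a second quantile normalization 9 of the 10 calls were made as well. Cell type markers moved in this interaction as well, with 9 of 10 Bergmann glia and astrocyte markers and 11 of 13 microglia and macrophage markers called negative. Of 8 granule neuron progenitor markers, 6 were called positive and 0 negative (median 3.41). Of 9 differentiating neuron markers, 8 were called positive and 0 negative (median 2.72). The part of all these markers in the interaction was not tested.

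**Figure D3:**
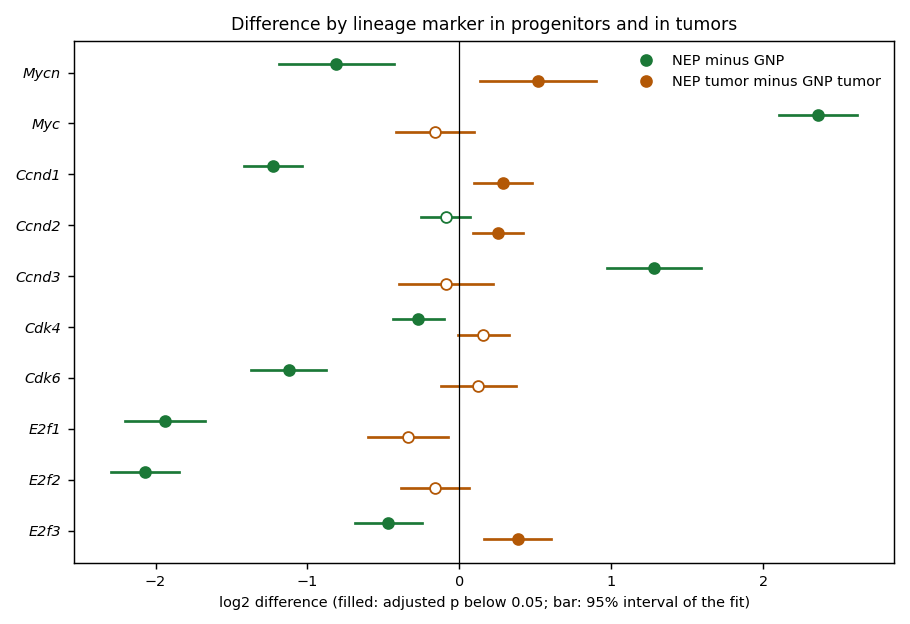
Log2 difference by marker (horizontal axis) for each of the 10 genes, as NEP minus GNP in progenitors and NEP tumor minus GNP tumor in tumors; bars are 95% intervals of the fit and filled points have an adjusted p below 0.05. The progenitor differences run from -2.07 (E2f2) to 2.36 (Myc), and the tumor differences from -0.34 (E2f1) to 0.52 (Mycn).

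Tumors against the progenitor of the same marker came from different sets of arrays, so that set and tumor cannot be told apart in the next values. In NEP tumors against NEPs, 7 of the 10 genes were called higher, 1 lower and 2 in neither direction, where 68.9% of all genes were called. Cdk6 was higher by 2.98 (SE 0.12, adjusted p = 6.69e-13), Ccnd1 by 1.90 (SE 0.09, adjusted p = 7.76e-12), E2f1 by 1.30 (SE 0.12, adjusted p = 8.81e-08) and Mycn by 1.22 (SE 0.18, adjusted p = 1.46e-05). Myc was higher by 0.81, E2f2 by 0.68 and Ccnd2 by 0.26, and Ccnd3 fell by 0.62. Cdk4 (0.16, adjusted p = 0.0875) and E2f3 (0.13, adjusted p = 0.264) were not called. With NEP arrays 3 and 4 only, Cdk6 was higher by 2.73, Ccnd1 by 1.82, E2f1 by 1.06 and Mycn by 0.80, and Ccnd2 lost its call (0.10, adjusted p = 0.222). Of 19 E2F target genes, 16 rose and 1 fell, with a median of 0.72, and of 18 Myc target genes 14 rose and 1 fell, with a median of 0.56. On the same arrays 10 of 10 pericyte, fibroblast and meningeal markers were called lower in NEP tumors (median -3.84), as were 8 of 9 endothelial and 7 of 8 radial glia markers. Of 10 Bergmann glia and astrocyte markers 7 were lower and 2 higher, and of 9 differentiating neuron markers 8 were higher and 1 lower. Of 8 granule neuron progenitor markers 5 were higher and 1 lower (median 1.33), and of 13 microglia and macrophage markers 3 were lower and 0 higher. The part of these markers was not tested.

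In GNP tumors against GNPs, 4 genes were called higher, 3 lower and 3 in neither direction, where 49.8% of all genes were called. Myc was higher by 3.34 (SE 0.12, adjusted p = 1.38e-12), a difference in size that 1.24% of all genes passed, and Cdk6 by 1.73 (SE 0.12, adjusted p = 2.82e-09). On the same arrays the microglia and macrophage median was 5.11 to 5.25 in GNP tumors and 1.86 to 2.22 in GNPs, with 7 of 13 markers called higher. All 10 Bergmann glia and astrocyte markers were called higher in GNP tumors too (median 2.47), with 6 of 10 pericyte, fibroblast and meningeal markers (median 1.66; 1 lower), 6 of 8 radial glia markers (2 lower) and 4 of 7 of the oligodendrocyte lineage. The part of these markers in the differences was not tested. Ccnd3 was higher by 0.75 and Ccnd1 by 0.38 (SE 0.09, adjusted p = 0.00206). E2f2 fell by 1.23 (SE 0.11, adjusted p = 5.71e-08), E2f3 fell by 0.72 and Cdk4 fell by 0.27. Mycn (-0.11, 95% interval -0.49 to 0.27), Ccnd2 (-0.08, -0.25 to 0.08) and E2f1 (-0.29, -0.56 to -0.03, adjusted p = 0.0596) were not called. Of 19 E2F target genes, 9 fell and 0 rose (median -0.21), among them Mybl2, a cell cycle transcription factor, at -1.08. Of 18 Myc target genes, 1 rose, Gnl3, which encodes nucleostemin (0.62), and 4 fell (median -0.01), on arrays on which Myc itself was higher by 3.34. Of 10 pocket proteins and CDK inhibitors, 6 were called higher and 0 lower, with Cdkn2a at 4.84, Cdkn2b at 2.47 and Cdkn1a (p21) at 2.02. In NEP tumors against NEPs, 8 of these 10 were called higher, with Cdkn2a at 4.39, Cdkn1a at 2.88 and Cdkn2b at 2.15, and 1 lower, Cdkn1c at -2.15.

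**Figure D4:**
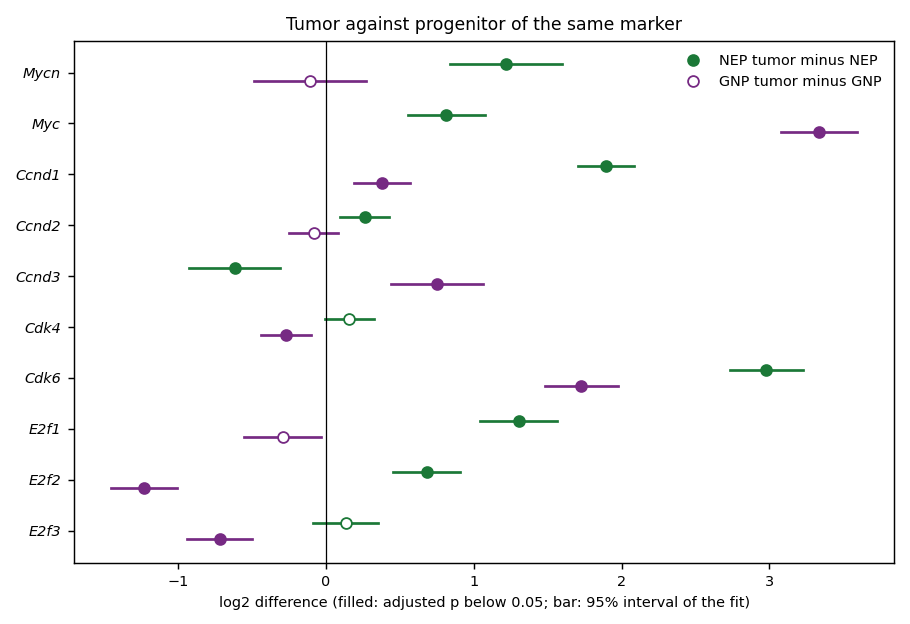
Log2 difference between tumor and progenitor of the same marker (horizontal axis) for each of the 10 genes, with 95% intervals of the fit; filled points have an adjusted p below 0.05. Cdk6, Myc and Ccnd1 are higher in the tumor for both markers (Cdk6 by 2.98 and 1.73, Myc by 0.81 and 3.34), while E2f2 is higher in NEP tumors (0.68) and lower in GNP tumors (-1.23).

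The CD133+, Lin- progenitors served as a second reference, again from the other set of arrays. Against NSCs, NEPs had 2 of the 10 genes called higher and 8 lower, where 58.4% of all genes were called. Myc was higher in NEPs by 1.98 and Ccnd3 by 0.60, and E2f2 differed by -2.08, E2f1 by -1.72, Cdk6 by -1.41, Ccnd1 by -1.40, Mycn by -0.69, E2f3 by -0.63, Ccnd2 by -0.32 and Cdk4 by -0.23 (adjusted p from 1.68e-10 for E2f2 to 0.0264 for Cdk4). Fitted to the NEP and NSC arrays alone, 7 of the 10 were called, without Mycn (adjusted p = 0.0707), Ccnd2 (adjusted p = 0.0572) and Cdk4 (adjusted p = 0.0805). With NEP arrays 3 and 4 only, 6 of the 10 were called, without Mycn (-0.26, adjusted p = 0.115), Ccnd2 (-0.16), Ccnd3 (0.42, adjusted p = 0.0554) and Cdk4 (-0.12). Between GNPs and NSCs, 3 of the 10 genes were called, all lower in GNPs, where 36.3% of all genes were called. They were Ccnd3 (-0.68, adjusted p = 0.00305), Myc (-0.39, adjusted p = 0.0305) and Ccnd2 (-0.23, adjusted p = 0.0436), and 1 or 2 genes were called when any 1 of the GNP or NSC arrays was left out. The pericyte, fibroblast and meningeal median was 8.62 to 8.77 in NSCs against 2.74 to 3.64 in GNPs, and 9 of 9 endothelial and 9 of 10 Bergmann glia and astrocyte markers were called lower in GNPs than in NSCs. Of the last list, 9 of 10 were called higher in NEPs than in NSCs. In that comparison 8 of 8 granule neuron progenitor markers were called lower in NEPs (median -2.66), and of 9 differentiating neuron markers 6 were lower and 2 higher. For GNPs against NSCs, 2 of 8 granule neuron progenitor markers were called higher in GNPs and 0 lower (median -0.02). The array medians of that list were 10.12 to 10.39 in GNPs and 10.11 to 10.23 in NSCs. The part of these markers in the values was not tested. Between GNPs and NSCs, the other 7 genes differed by -0.29 (Cdk6) to 0.22 (E2f1) and were not called.

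Several genes have more than 1 probe set, and these were read as a check. Between NEPs and GNPs, the other probe sets of Mycn, Ccnd1, Cdk4, Cdk6, E2f1, E2f2 and E2f3 were all called lower in NEPs, with Ccnd1 at -1.38 and -2.09 and Mycn at -1.42 and -0.30. Some of these are dim: the third E2f1 probe set was at or above the array median on 0 of the 19 arrays, the second E2f3 on 7 and the third Mycn on 10. None of the 7 Ccnd2 probe sets was called (-0.24 to -0.08). The 2 other Ccnd3 probe sets, at or above the array median on 2 and 0 of the 19 arrays, gave -0.08 and -0.10 and were not called, so that the Ccnd3 difference rests on 1 probe set. Myc has 1 probe set. Between the tumors, all 7 Ccnd2 probe sets were higher in NEP tumors (0.21 to 1.11) and 4 were called. The second Mycn probe set gave 0.86 (adjusted p = 0.00208) and the third, at or above the array median on 10 arrays, 0.00. For Cdk6, 2 probe sets gave 0.13 and 0.03 and the third was called lower in NEP tumors, at -0.57 (adjusted p = 0.0262).

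**Figure D5:**
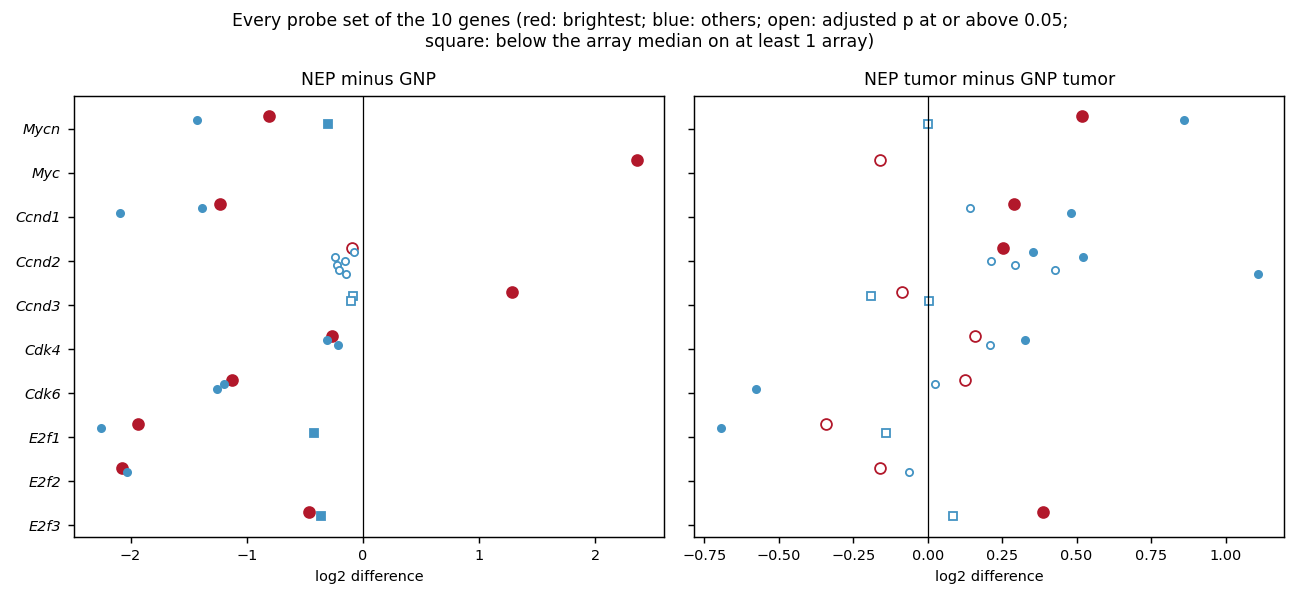
Log2 difference (horizontal axis, its range set for each panel) of every probe set of the 10 genes, NEP minus GNP on the left and NEP tumor minus GNP tumor on the right; red is the probe set with the highest mean, blue the others, open points have an adjusted p of at least 0.05, and squares lie below the array median on at least 1 array. On the left all probe sets of Mycn, Ccnd1, Cdk4, Cdk6, E2f1, E2f2 and E2f3 lie below 0, and on the right the Cdk6 probe sets lie on both sides of 0.

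Across the 19 arrays, which share their groups and sets, Ccnd1 ran with Cdk6 (Pearson r = 0.90) and with Mycn (r = 0.80), and E2f1 with E2f2 (r = 0.83). Myc ran against E2f3 (r = -0.83) and E2f2 (r = -0.80), and its correlation with Mycn was 0.03. These values describe 5 groups of arrays and carry no test. Of all genes tested, the 2 whose pattern over the 19 arrays was most like that of Mycn were Eri1 (r = 0.96) and Lsm1 (0.96), and for Myc they were Nap1l5 (0.99) and Plscr4 (0.98). For Ccnd1 they were Dnajc21 and Shmt1 (0.99 each), for Ccnd2 Scaf1 (0.94) and Rbmxl1 (0.91), and for Ccnd3 Phlda1 (0.94) and Bcan (0.93). For Cdk4 they were Ints11 (0.92) and Ahcy (0.92), and for Cdk6 Otud4 and Zfp593 (0.99 each). For E2f1 they were Htatsf1 and Noc4l (0.98 each), for E2f2 E2f7 (0.97) and Pgf (0.96), and for E2f3 Prim2, a primase subunit (0.95), and Slirp (0.94).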

How the data were processed

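The 10 genes and all gene lists were chosen with earlier results of these data known. The authors deposited log2 signals made with RMA in Affymetrix Expression Console, as the submitters' processing notes name them; versions, background step and log base are not given in the sources used here. The base was checked on spike-ins (Cre minus BioB 5.41 on average, range 5.04 to 5.78). Per the labels' protocols, Trizol was used for extraction, and 100 ng of RNA was amplified with the Ambion WT kit. Of 45101 probe sets, 34945 carried 1 gene symbol, which gave 18193 genes, and the 12148 genes at or above the array median on at least 3 arrays were tested. The model was limma 3.58.1 in R 4.3.3 (lmFit, eBayes) with a mean for each of the 5 groups, fitted to all 19 arrays, two-sided, with Benjamini-Hochberg adjustment over all genes tested and calls at an adjusted p below 0.05. It was tested on simulated data. No 2 arrays held identical values, and the number of arrays limits the precision. The 10 genes were named in every comparison, with up to 2 called genes in each direction from each of 8 pathway lists in both within-set comparisons, and 2 genes by likeness. Mybl2, Gnl3 and, in the tumors against progenitors, Cdkn1a, Cdkn1c, Cdkn2a and Cdkn2b were named after their values were seen. Alternatives were the compared groups alone, other filters, a second quantile normalization, averaged probe sets, a variance trend, a replicate block, each array left out and, chosen after seeing the data, subsets of NEP and NEP tumor arrays.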

Additional observations from a re-analysis of the deposited data

Results flagged for a closer look

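The NEP to GNP difference was not the same in tumors as in progenitors for any of the 10 genes, by the interaction test of limma. The tumor difference minus the progenitor difference was 1.33 for Mycn, -2.52 for Myc, 1.52 for Ccnd1, 0.35 for Ccnd2, -1.37 for Ccnd3, 0.43 for Cdk4, 1.25 for Cdk6, 1.60 for E2f1, 1.91 for E2f2 and 0.85 for E2f3. Beside these values, 61.9% of all genes tested had a called interaction.

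Of 40 sets of 4 arrays (10 genes in 4 groups), 2 held an array far from the other 3, where chance gives about 1 in 20. Ccnd3 was lowest on NEP tumor array 3, at 5.49. E2f3 was lowest on GNP tumor array 2, at 6.89.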

How the results depend on the processing

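Apart from other probe sets, 1094 values of single genes under an alternative kept their direction and their side of the threshold. Of the rest, 69 lost their call, 16 gained one and 11 reversed. For other probe sets the numbers were 98, 17, 8 and 17. The count of genes called between the tumors was the least stable, at 4 in the fit reported, all higher in NEP tumors. It was 2 after a second quantile normalization, 1 higher and 1 lower. With a filter at the 75th percentile it was 5, and with averaged probe sets 6, each with 1 gene lower. It was 2 with NEP tumor arrays 1 and 2 only, 1 with arrays 3 and 4 only, and 1 to 3 with each array left out. Against NSCs, the count for NEPs was 6 with NEP arrays 3 and 4 only and 7 with the compared groups alone. The count for GNPs was 5 when all probe sets of a gene were averaged and 1 to 2 with each array left out. The labels do not say whether replicate numbers pair the arrays, but same-numbered NEP and GNP arrays have consecutive serial numbers in their titles. Same-numbered NEP and GNP arrays had correlated deviations of -0.16 to 0.07 and tumor arrays of -0.04 to 0.05. In each, 1 of 4 arrays correlated best with its own number. With so few arrays, and with NEP arrays 1 and 2 apart from 3 and 4, these correlations cannot exclude pairing. With the replicate block, 8 of the 10 genes were called between NEPs and GNPs, where Cdk4 lost its call (adjusted p = 0.0865). It left 3 called between the tumors and 10 in the interaction.

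Reversed values, none of which was called on both sides, and whose cause was not tested, were as follows, with probe sets numbered by their mean signal. In NEP against GNP, Ccnd2 was 0.0288 after a second quantile normalization and 0.0685 with NEP arrays 3 and 4 only. Between the tumors, Myc was 0.0194 with NEP tumor arrays 1 and 2 only, and Cdk6 was -0.141 as the mean of its probe sets and -0.575 by the third. In NEP tumor against NEP, E2f3 was -0.0201 with NEP arrays 3 and 4 only. The dim Ccnd3 probe sets, the second and the third, gave -0.0839 and -0.102 in NEP against GNP, -0.128 and -0.165 in NEP against NSC, and 0.0383 and 0.190 in NEP tumor against NEP. The third gave 0.0059 between the tumors and 0.108 in the interaction. In GNP against NSC, Cdk4 was -0.0411 as the mean of its probe sets, -0.0281 by the second, -0.131 by the third and -0.0036 to 0.0857 with each array left out. In the same comparison Cdk6 was 0.478 by the third, E2f2 was 0.0379 as the mean of its probe sets, 0.0903 by the second and -0.0364 to 0.0036 with each array left out, and E2f3 was 0.0420 as the mean and 0.248 by the second. In GNP tumor against GNP, Ccnd2 was 0.0205 as the mean of its probe sets, 0.199 by the fourth, 0.159 by the sixth and 0.2997 by the seventh.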
